A study of Mus musculus with 2 samples.

Results

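Immediate early genes are switched on within minutes of a stimulus, from factors already present in the cell. They were read here in the liver of a Tmprss6-deficient mouse and of a control mouse by the probe sets that the array's annotation maps to 1 of the listed symbols alone. The set holds 10 genes on 11 probe sets, of 18193 named genes and 45101 probe sets on each array. The genes are Fos, Fosb, Jun, Junb, Egr1, Dusp1, Ier2, Ier3, Myc and Gadd45g. Jun had 2 probe sets and each of the others had 1.

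The Tmprss6-deficient group was 1 male mouse of genotype Tmprss6-/-, and the control group was 1 male mouse whose genotype the labels do not state. Both animals were 3 months old, of mixed 129Sv and C57BL6 background, and were fasted overnight before the liver was taken. The mutation was made by gene targeting in the mouse, and the labels name no Cre or liver-restricted deletion. Tmprss6 encodes matriptase-2, a protease that restrains hepcidin production in hepatocytes. Each liver was hybridised to 1 Affymetrix mouse array, so no value has a replicate, no test was possible, and each difference is one between these 2 animals.

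The proteins of the FOS and JUN families pair to form AP-1, a transcription factor that many growth and stress signals reach through the MAP kinases. EGR1 is a zinc-finger factor induced along the same route through serum response factor, MYC drives growth and ribosome production, and DUSP1 is a phosphatase that switches MAP kinases off again. In liver these transcripts are known to respond to feeding and fasting hormones, cytokines, injury and the handling of the tissue, and they are short-lived.

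The promoters of Fos, Dusp1 and Gadd45g, the members with lower signal by 1.5-fold or more, are shown beside that of Junb, a member within 1.5-fold. RefSeq promoter windows of build GRCm38.p6 ran from 250 bases before to 50 bases after the annotated start. They were matched by symbol for 7 of the 10 genes. Egr1, Ier2 and Myc had no window, so both members with higher signal by 1.5-fold or more are left out. Capitals mark the cyclic AMP response element (CRE) half-site TGACG or its complement, the full CRE TGACGTCA, and the TATA box TATAAA, each searched on both strands. A full CRE holds a half-site on each strand. The windows are chr12:85473640-85473939 on the + strand for Fos, chr17:26508423-26508722 on the - strand for Dusp1, chr13:51846425-51846724 on the + strand for Gadd45g and chr8:84978699-84978998 on the - strand for Junb.
Fos: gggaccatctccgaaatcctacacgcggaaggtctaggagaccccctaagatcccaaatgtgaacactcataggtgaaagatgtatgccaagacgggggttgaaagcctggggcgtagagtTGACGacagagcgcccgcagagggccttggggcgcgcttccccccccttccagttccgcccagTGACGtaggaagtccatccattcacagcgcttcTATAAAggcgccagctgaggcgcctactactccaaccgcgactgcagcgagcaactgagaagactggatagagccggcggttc
Dusp1: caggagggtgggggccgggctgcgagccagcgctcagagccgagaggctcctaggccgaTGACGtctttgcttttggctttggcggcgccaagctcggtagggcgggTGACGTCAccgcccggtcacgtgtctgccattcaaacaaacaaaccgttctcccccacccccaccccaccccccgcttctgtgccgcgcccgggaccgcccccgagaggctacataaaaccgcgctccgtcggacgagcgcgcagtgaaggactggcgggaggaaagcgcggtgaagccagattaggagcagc
Gadd45g: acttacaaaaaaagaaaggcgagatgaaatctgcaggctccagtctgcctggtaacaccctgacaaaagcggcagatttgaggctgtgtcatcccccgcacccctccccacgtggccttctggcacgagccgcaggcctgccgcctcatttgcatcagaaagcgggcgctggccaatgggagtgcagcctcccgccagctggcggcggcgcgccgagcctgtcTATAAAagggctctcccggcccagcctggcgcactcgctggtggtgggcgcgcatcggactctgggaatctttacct
Junb: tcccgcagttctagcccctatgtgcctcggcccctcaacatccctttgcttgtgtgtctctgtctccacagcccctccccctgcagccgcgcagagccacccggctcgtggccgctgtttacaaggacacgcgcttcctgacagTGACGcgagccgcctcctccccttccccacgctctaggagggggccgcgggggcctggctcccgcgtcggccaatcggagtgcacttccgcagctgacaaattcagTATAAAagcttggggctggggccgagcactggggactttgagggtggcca
The Fos window held 2 half-sites, which began 129 and 66 bases before the start, and a TATA box 33 bases before it. The Dusp1 window held 1 full CRE, beginning 143 bases before the start, and a further half-site 191 bases before it. The Gadd45g window had a TATA box 27 bases before the start and 0 CRE half-sites, and Junb had 1 half-site 106 bases before it. The Junb TATA box began at base 1, the annotated start itself, so distances in that window may not compare with the others. A half-site was present in 20.8% of all 32851 promoter windows, a full CRE in 1.79% and a TATA box in 13.6%. Of the 7 member windows, 4 held a half-site, 1 a full CRE and 3 a TATA box. The CArG box, the site of serum response factor, was in 1.63% of all windows and in 0 of the 7, and the AP-1 site TGANTCA was in 7.81% and in 0 of the 7. These are matches of letters in a short window and do not show that a factor was bound. A site more than 250 bases before the start would be missed, so 0 matches do not mean that a gene lacks the site.

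The labels' tissue and genotype were checked first. All 7 hepatocyte markers with a probe set were measured and lay within 1.5-fold on their brightest sets. A dimmer set of Apob was 1.55-fold higher. The albumin gene Alb read 27850.5 in the Tmprss6-deficient liver and 29344.8 in the control liver. Tmprss6 itself read 88.1 in the Tmprss6-deficient liver and 1868 in the control liver, 21.2-fold lower in the mutant. Signals are linear MAS5 values, and the floor below which a signal was taken as not measured was 17.8, the median over both arrays. On the Tmprss6-deficient array 22773 probe sets reached it and on the control array 22345, of those other than the 64 control sets. The ratio of 3′ to 5′ control sets, a sign of RNA integrity, was 0.878 and 0.934 for Gapdh and 2.91 and 3.33 for Actb in Tmprss6-deficient and control liver.

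Immediate early genes did not move together between the livers. Egr1 and Ier2 were higher in the Tmprss6-deficient liver, Fos, Gadd45g and Dusp1 were lower, and Jun, Junb and Myc lay within 1.5-fold. Of the 10 genes, 8 reached the floor on both arrays, Ier3 was above it only in the control and Fosb on neither. At 1.5-fold, 2 passed upward and 3 downward. The share of all 12256 genes above the floor on at least 1 array was 8.82% for higher and 9.19% for lower. By 2-fold or more, 0 members were higher and 2 were lower, beside 2.37% and 2.77% of all genes. These 2-fold counts depend on the processing. There was 1 higher after quantile or loess normalization (Egr1) or with the floor at the 30th percentile (Fosb), 3 lower after scaling to the median (Dusp1 added), and 1 lower with plain probe sets, where Gadd45g had none. In a piece of liver, fewer cells of a type and less RNA per cell cannot be told apart.

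The only error available is how far 2 probe sets of 1 gene differ in log2 ratio, written here as the probe set SD. It was 0.46 where signals were under 64, 0.37 between 64 and 256, 0.32 between 256 and 1024, and 0.18 at brighter signals, and it leaves out variation between animals. Ratios are Tmprss6-deficient over control.

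**Figure D1:**
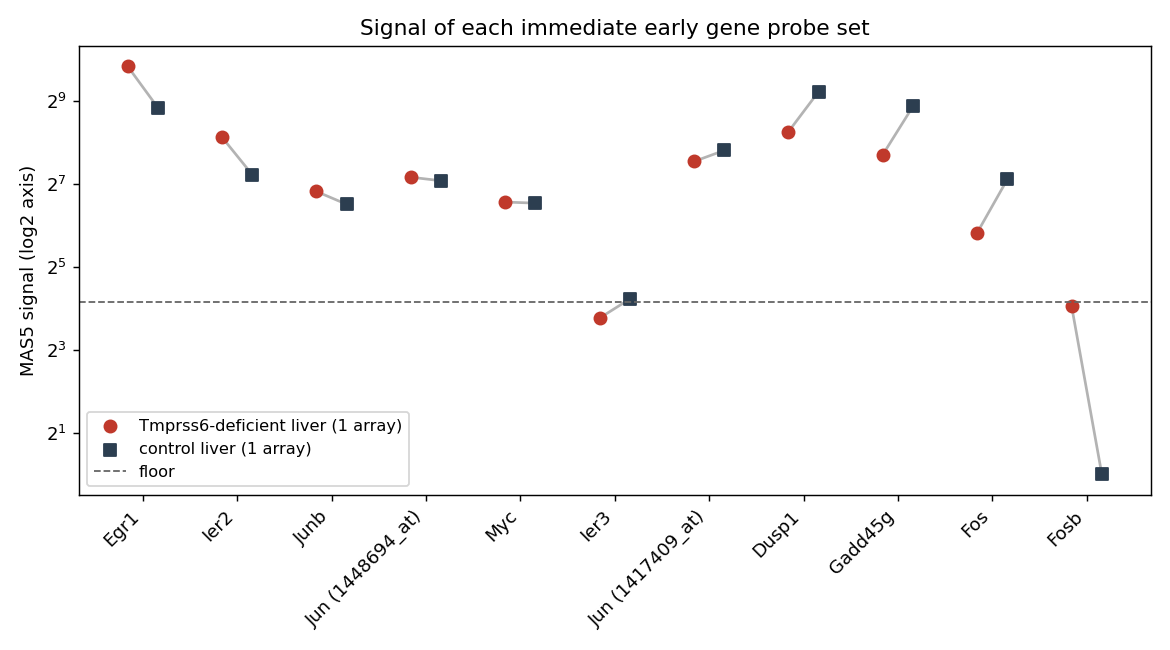
MAS5 signal (log2 axis) of each of the 11 probe sets in the Tmprss6-deficient liver (circles) and the control liver (squares), 1 array each, ordered by ratio with Fosb last and with the floor of 17.8 dashed. Egr1 and Ier2 lie higher in the Tmprss6-deficient liver, Dusp1, Gadd45g and Fos lie lower, and both Fosb points are below the floor.

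Among the AP-1 subunits, Fos had the largest difference. Fos, whose protein pairs with a JUN protein, read 56.6 in the Tmprss6-deficient liver and 138 in the control liver on probe set 1423100_at. It was 2.44-fold lower, a log2 ratio of -1.29 against a probe set SD of 0.37. Of 3895 genes in that signal range, 1.16% were lower by as much or more, and Fos ranked 107 from the lowest among the 10260 genes above the floor on both arrays. The related Fosb read 16.6 in the Tmprss6-deficient liver and 1.0 in the control liver on 1422134_at. Both Fosb values are below the floor, so no ratio is given.

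Jun and Junb differed by less than the probe set SD. Jun, which can pair with itself or with a FOS protein, read 186 in the Tmprss6-deficient liver and 224 in the control liver on 1417409_at, a log2 ratio of -0.27. On 1448694_at it read 143 in the Tmprss6-deficient liver and 135 in the control liver, a log2 ratio of 0.09. The 2 Jun probe sets thus disagreed in sign, and both ratios were smaller than the probe set SD of 0.37. Junb, a JUN paralog that is a weaker activator in many settings, read 113 in the Tmprss6-deficient liver and 91 in the control liver on 1415899_at. Its log2 ratio of 0.31 was also within that SD, and 20.5% of genes in the range were higher by as much or more.

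Egr1 was the member with the largest positive ratio. Egr1 read 914 in the Tmprss6-deficient liver and 458 in the control liver on 1417065_at, and was 1.997-fold higher. Its log2 ratio of 0.998 compares with a probe set SD of 0.32, and 1.20% of the 2408 genes from 256 to 1024 were higher by as much or more. Egr1 ranked 207 from the highest of all 10260 genes. That fold left it just under the 2-fold line.

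Ier2, which encodes a small nuclear protein induced by growth factors, read 279 in the Tmprss6-deficient liver and 149 in the control liver on 1416442_at. It was 1.87-fold higher, with a log2 ratio of 0.90 against an SD of 0.37, and 2.18% of genes in its range were higher by as much or more. Ier3, a stress-induced survival gene that shares a name but no family with Ier2, was at the edge of detection. It read 13.6 in the Tmprss6-deficient liver and 18.7 in the control liver on 1419647_a_at, which bounds it as at least 1.05-fold lower.

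Dusp1 and Gadd45g were lower and Myc was close between the livers. Dusp1, the MAP kinase phosphatase, read 306 in the Tmprss6-deficient liver and 599 in the control liver on 1448830_at. It was 1.96-fold lower, a log2 ratio of -0.97 against an SD of 0.32, and 1.83% of genes in its range were lower by as much or more. Gadd45g, a stress sensor that binds MAP kinase kinases and cell cycle proteins, read 209 in the Tmprss6-deficient liver and 468 in the control liver on 1453851_a_at. It was 2.24-fold lower, a log2 ratio of -1.17 against an SD of 0.32, and 1.20% of genes in its range were lower by as much or more. Myc read 94.5 in the Tmprss6-deficient liver and 92.8 in the control liver on 1424942_a_at, a log2 ratio of 0.03 and the smallest of the members above the floor on both arrays.

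The members differed in both directions around a median near 0. The median log2 ratio of the 8 members above the floor on both arrays was -0.12, and -0.07 with Ier3 at its bound, against -0.0088 over all genes above the floor on both arrays. The median absolute log2 ratio was 0.93 over those members and 0.24 over all 10260 genes. In 5 of the 8, the ratio was more than 2 times the probe set SD, and in the other 3 it was less than the SD. The same 5 passed 1.5-fold, while 84.0% of all 10260 genes lay within it. The share of all genes past 2 times the SD was not computed, so there is none beside that count.

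**Figure D2:**
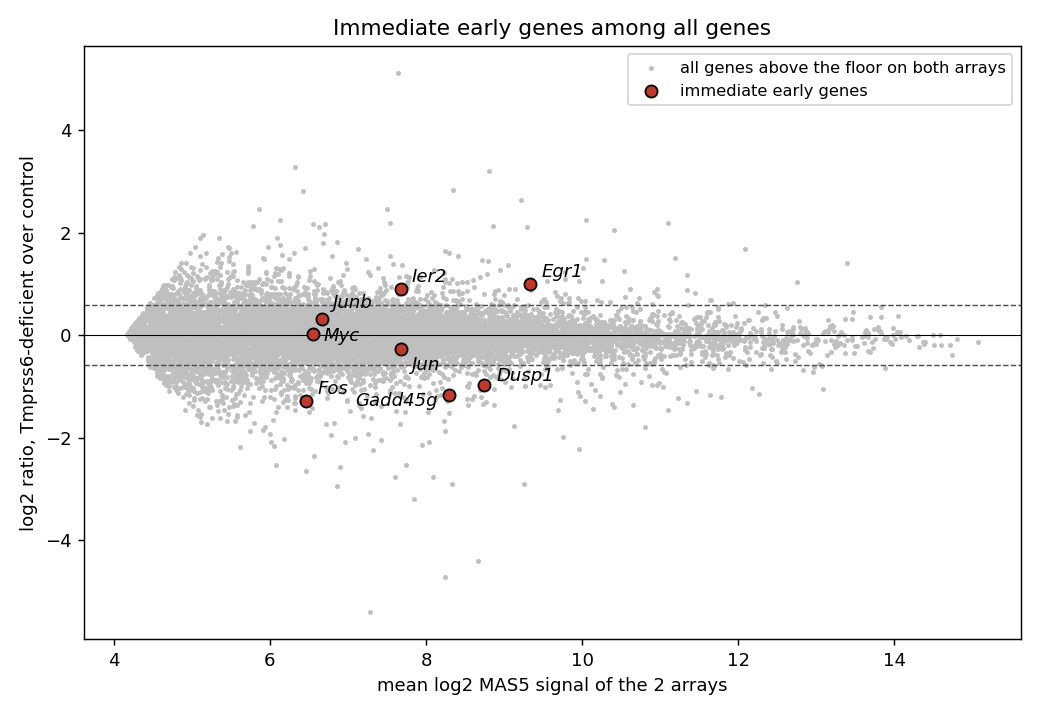
Log2 ratio (Tmprss6-deficient over control) against mean log2 signal for the 10260 genes above the floor on both arrays (grey) and the 8 immediate early genes among them (red), with 1.5-fold dashed. Egr1 and Ier2 lie above the upper line, Fos, Gadd45g and Dusp1 below the lower one, and Jun, Junb and Myc between them.

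Close relatives of the members were set beside them. Of 20 relatives and EGR corepressors, 14 reached the floor on at least 1 array. At 1.5-fold, 5 of these relatives passed upward and 1 downward, beside 8.82% and 9.19% of all measured genes. Those shares apply beside each list count at 1.5-fold below. The relatives are counted on their brightest sets. Their median log2 ratio was 0.29, against -0.0044 over all genes measured in the same way. Fosl2, the FOS-family gene for FRA-2, read 63.8 in the Tmprss6-deficient liver and 35.9 in the control liver, 1.78-fold higher, and was 1.27-fold higher on its other probe set. Fos and Fosl2 thus differed in opposite directions. Jund, the JUN paralog that is usually expressed at rest, read 1274 in the Tmprss6-deficient liver and 805.5 in the control liver, 1.58-fold higher, while a dim set that reached the floor in the control liver alone was bounded as at least 1.35-fold lower.

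Nab2, a corepressor that binds EGR1 and is itself an EGR1 target, read 131 in the Tmprss6-deficient liver and 71.5 in the control liver, 1.83-fold higher. Its paralog Nab1 had a log2 ratio of -0.08. The other EGR factors were dim, with Egr3 at 22.6 in the Tmprss6-deficient liver and 32.1 in the control liver and Egr2 and Egr4 below the floor on both arrays. Egr1 and Nab2 were the EGR-related genes past 1.5-fold.

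Relatives of Dusp1 and Gadd45g were not lower by 1.5-fold where measured. Dusp16, a phosphatase of the JNK kinases, read 567 in the Tmprss6-deficient liver and 378 in the control liver, a log2 ratio of 0.59 that sits on the threshold of 0.58. Dusp6, a phosphatase of ERK, had a log2 ratio of 0.31 and Dusp4 one of -0.18. Gadd45b, a paralog of Gadd45g, read 166 in the Tmprss6-deficient liver and 174 in the control liver on its brightest probe set, and its other 2 sets were 1.35-fold and 1.63-fold higher. Gadd45a read 21.4 in the Tmprss6-deficient liver and 0.7 in the control liver, at least 1.20-fold higher.

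Of the MYC relatives, Mycl read 71.9 in the Tmprss6-deficient liver and 5.4 in the control liver on its brightest probe set, at least 4.04-fold higher. Its other 2 measured sets, dimmer and above the floor on both arrays, were 1.72-fold and 1.31-fold higher. Mycn read 12.4 in the Tmprss6-deficient liver and 34.0 in the control liver, at least 1.91-fold lower. Both rest on a signal below the floor in 1 of the livers.

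Other rapid-response genes past the threshold were lower on their brightest sets, but some dimmer sets were higher. Of 34 genes, 31 were measured. At 1.5-fold on the brightest sets, 0 passed upward and 7 downward, beside 8.82% and 9.19% of all measured genes. On dimmer sets, Cebpd was 1.91-fold, Btg2 1.89-fold and Klf6 1.74-fold and 1.51-fold higher. The median log2 ratio was -0.11, with 14 above zero and 17 below. Plk3, a stress-responsive kinase gene, read 89.1 in the Tmprss6-deficient liver and 224 in the control liver and was 2.52-fold lower on its 1 probe set. Klf2, a transcription factor gene of endothelium and lymphocytes, read 53.1 in the Tmprss6-deficient liver and 121 in the control liver, 2.27-fold lower on 1 probe set.

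Others of the 7 rested on probe sets that disagreed. Ccn1, the matrix protein gene also called Cyr61, was 2.66-fold lower on its brightest set, which read 23.0 in the Tmprss6-deficient liver and 61.2 in the control liver, and 1.14-fold higher on another. Its 2 remaining sets reached the floor in the control liver alone and were at least 2.08-fold and 1.10-fold lower, so 3 of 4 Ccn1 sets were lower. Socs3, a cytokine feedback inhibitor, was 2.08-fold lower on its brightest set, with the other measured sets at log2 ratios of 0.07 and -0.0037. Klf4 was 1.62-fold lower on one set and 1.14-fold higher on the other. Csrnp1 read 48.9 in the Tmprss6-deficient liver and 77.6 in the control liver, 1.59-fold lower, and a further set, which reached the floor in the mutant alone, was at least 1.27-fold higher. Nfkbia, the NF-kappaB inhibitor gene, had a log2 ratio of -0.59 on its brightest set, with 4 of its 5 sets lower.

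Among measured genes upstream of the response, 13 of 16 lay within 1.5-fold on their brightest sets. Of all genes above the floor on both arrays, 84.0% did. Of 21 kinases and factors, 17 had a probe set naming them alone, and 16 were measured. At 1.5-fold, 2 passed upward and 1 downward, with a median log2 ratio of 0.13. Srf, which encodes serum response factor, read 107 in the Tmprss6-deficient liver and 57.6 in the control liver, 1.85-fold higher, while its other set read 34.6 and 34.8 in Tmprss6-deficient and control liver. Stat3, which carries interleukin-6 signals, was 1.80-fold higher on its brightest set and higher on 2 others, while the fourth, at 21.2 in the Tmprss6-deficient liver and 39.6 in the control liver, was 1.87-fold lower. On a dimmer set, Mapk14 was 2.20-fold and Braf 1.80-fold higher, while Crtc2 was 1.81-fold lower and Elk3 at least 2.17-fold lower. When probe sets were averaged, 0 upstream genes passed 1.5-fold in either direction. Rps6ka3, an ERK-activated kinase gene, had a log2 ratio of -0.59 on its brightest set and was 1.66-fold higher on the other, and Mapk8 (JNK1) had a log2 ratio of -0.27.

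**Figure D3:**
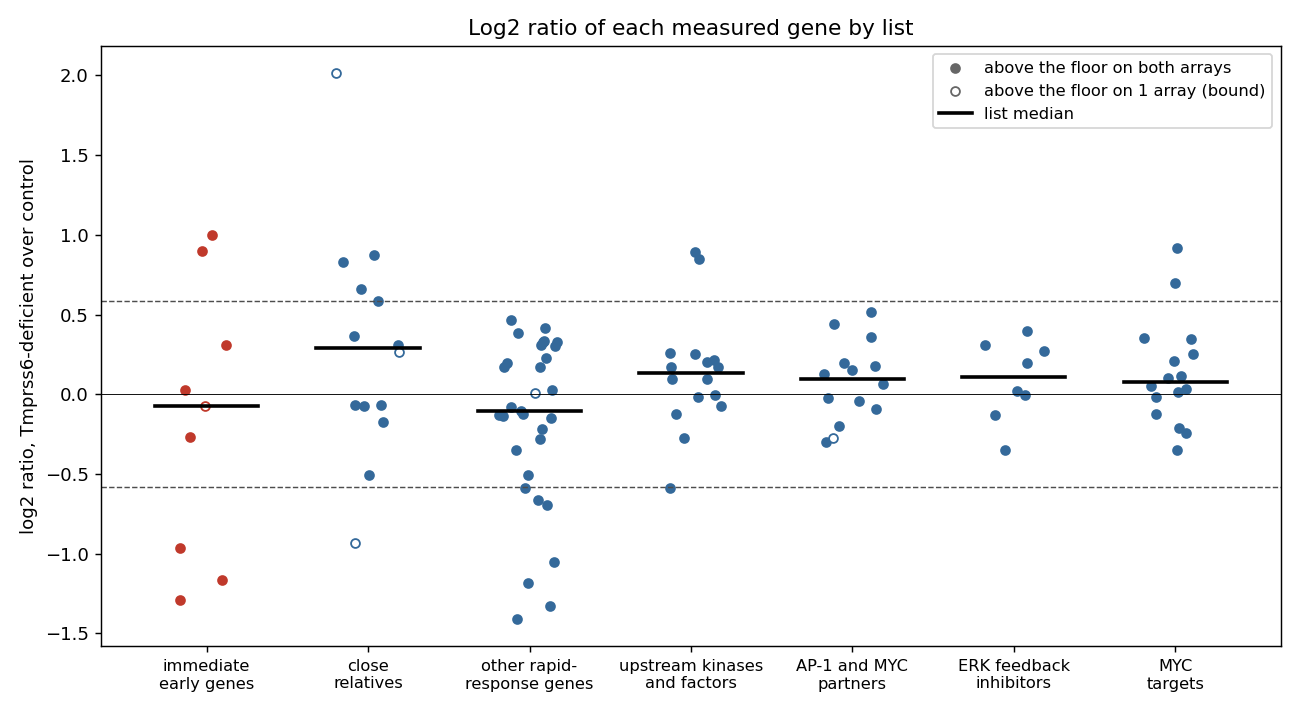
Log2 ratio (Tmprss6-deficient over control) of each measured gene in 7 lists, with the list median as a bar, 1.5-fold dashed and open points for genes above the floor on 1 array. The immediate early genes run from -1.29 to 0.998. The filled points of the list labelled AP-1 and MYC partners and of the ERK feedback inhibitors lie inside the dashed lines. The open point in the partner list, Mxd1, is a bound.

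A list of 16 dimer partners covered the wider AP-1 and MYC networks, and not each of them pairs with AP-1 or MYC proteins themselves. Of these genes, 14 were measured. Among the 14, 13 reached the floor in both livers and differed by less than 1.5-fold on their brightest sets. The median log2 ratio of the 14 was 0.09. The other, Mxd1, read 0.8 in the Tmprss6-deficient liver and 21.5 in the control liver, which bounds it as at least 1.21-fold lower and does not place it within 1.5-fold. The largest log2 ratios on the brightest sets were 0.52 for Jdp2, a JUN-binding repressor gene, 0.44 for Mxd3 and 0.36 for Batf3. On a dimmer set, Mxd4 was 2.41-fold higher and Mxi1 1.69-fold lower. Max, the obligate partner of MYC, read 29.7 in the Tmprss6-deficient liver and 36.5 in the control liver, a log2 ratio of -0.30. Feedback inhibitors of ERK, 8 of 8 measured, lay within 1.5-fold on their brightest sets, with a median of 0.11, a log2 ratio of 0.40 for Spry2 and one of -0.35 for Errfi1. Dimmer sets went further, with Spred1 2.30-fold higher on one of its 7 measured sets and Spred2 1.55-fold lower on one set.

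Known MYC targets in ribosome production and growth, 16 of 16 measured, had a median of 0.08, and 2 passed 1.5-fold upward and 0 downward. Nop58, a nucleolar protein gene, read 99.8 in the Tmprss6-deficient liver and 52.9 in the control liver, 1.89-fold higher on 1 probe set. Cad, an enzyme gene of pyrimidine synthesis, was 1.62-fold higher on one set and 1.16-fold higher on the other. Ppan and Nolc1 had log2 ratios of 0.35 and -0.35.

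Immediate early transcripts can be made in many cell types of the liver, so markers of the other cells were read beside them. Of 11 Kupffer cell markers, all measured, 1 passed 1.5-fold upward and 4 downward, with a median log2 ratio of -0.53. The summed signal of a list is taken over every marker with a probe set, and for Kupffer cells it was 3026 in the Tmprss6-deficient liver and 4184 in the control liver. Clec4f, a Kupffer cell lectin gene, was 1.76-fold lower, C1qb 1.89-fold lower and the scavenger receptor gene Marco 1.76-fold higher. Dimmer sets of C1qb were 1.41-fold and 1.09-fold lower, and a dimmer set of Marco was 1.28-fold higher. Of 10 endothelial markers, all measured, 3 were higher and 3 were lower, with a median log2 ratio of 0.13 and sums of 1380 in the Tmprss6-deficient liver and 1420 in the control liver. Lyve1, a hyaluronan receptor gene of sinusoidal endothelium, read 152 in the Tmprss6-deficient liver and 32.3 in the control liver, 4.71-fold higher, and was 2.54-fold higher on its other set. Clec4g, a sinusoidal lectin gene, was 1.98-fold lower. The brightest set of Egfl7 was 1.91-fold higher and another was 1.39-fold lower.

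Stellate cell markers, 9 of 9 measured, had 0 higher and 1 lower. The lower one was Acta2, the smooth muscle actin gene, at 89.2 in the Tmprss6-deficient liver and 514 in the control liver. A dimmer Acta2 set, which reached the floor in the mutant alone, was at least 1.15-fold higher. The stellate cell sums were 2694 and 2717 in Tmprss6-deficient and control liver. Neutrophil markers, 5 measured of 8 listed, had 2 higher and 1 lower and sums of 166 and 177 in Tmprss6-deficient and control liver. Csf3r was 1.83-fold and Ngp 1.58-fold higher. Elane was at least 1.67-fold lower, S100a8 1.33-fold lower and S100a9 1.21-fold lower. Lymphocyte markers, 6 measured of 9, had 1 higher and 0 lower, with sums of 132 in the Tmprss6-deficient liver and 112.5 in the control liver, and Cd3e and Cd3d were below the floor on both arrays.

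Cholangiocyte markers, 4 measured of 6 and each above the floor only in the control, summed to 42.4 in the Tmprss6-deficient liver and 129.6 in the control liver, with 0 higher and 2 lower, among them Krt19, at least 2.76-fold lower. Erythroid markers, 5 measured of 6, had 0 higher and 2 lower and summed to 352 in the Tmprss6-deficient liver and 732 in the control liver. Klf1, a transcription factor gene of red cell precursors, was at least 3.23-fold lower. Alas2, of heme synthesis, was 2.56-fold lower, at 232 in the Tmprss6-deficient liver and 593 in the control liver, and made up most of both sums. The other measured markers were mixed. Hbb-b2 was 1.44-fold higher on its brightest set and 1.56-fold lower on its other set. Slc4a1 was at least 1.05-fold higher and Hba-a1 at least 1.16-fold lower. No marker of these lists was at a signal of 0 on either array. The part of these cells in the differences of Fos, Dusp1, Gadd45g, Egr1 and Ier2 was not tested.

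The differences of the 5 genes past 1.5-fold kept their direction and stayed past that line in the 9 alternative settings. Gadd45g had no plain probe set and so no value there. Each of the 5 has 1 probe set, with both signals above every floor used. Leaving out the scaling, moving the floor, averaging probe sets or keeping plain ones could therefore not change its ratio. Median scaling, quantile or loess normalization and the pseudocount could change it. Across settings the log2 ratio ran from -1.35 to -1.07 for Fos, from -1.22 to -1.10 for Gadd45g, from -1.02 to -0.93 for Dusp1, from 0.83 to 0.90 for Ier2 and from 0.94 to 1.01 for Egr1. Myc ran from -0.03 to 0.03 and has no settled sign.

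**Figure D4:**
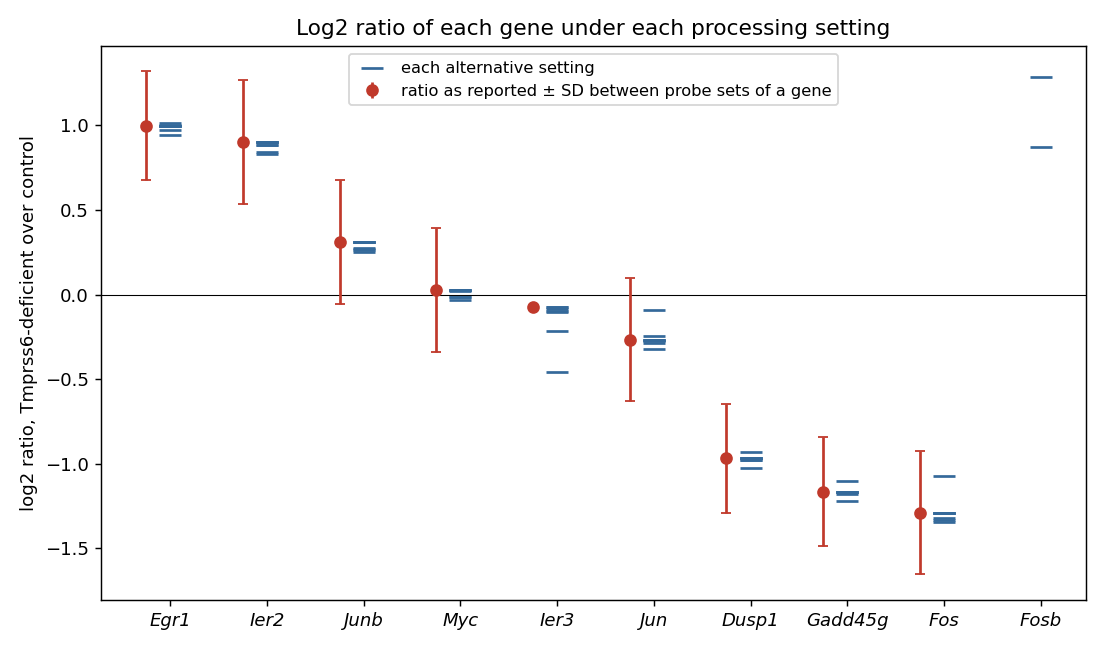
Log2 ratio (Tmprss6-deficient over control) of each gene as reported (circle, with the SD between probe sets of a gene in its signal range as bars) and under each alternative setting (dashes). Egr1 and Ier2 stay above 0 and Dusp1, Gadd45g and Fos below it, while Myc lies on both sides, Ier3 has no bar because it is a bound, and Fosb has a value in 2 settings.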

How the data were processed

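Total liver RNA was labelled with biotin by in vitro transcription from cDNA, per the labels' protocols. The authors deposited intensity signals from MAS5, according to the submitters' processing notes. The sources used here do not give its version or settings. Values run from 0 to 42541, and both arrays have a mean of 100.0 after the lowest and highest 2% are left out, so scaling to that mean changed nothing. Detection calls were not used here.

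Names came from the platform annotation. Of 45101 probe sets, 34945 other than control sets had 1 symbol, 932 had several and 9211 were not listed there. Cyr61, Ctgf, Mkl1 and Mkl2 were found under newer symbols through RefSeq synonyms. Dimmer signals were raised to the floor before log2. A gene above it on 1 array has only a bound, "at least". The probe set of highest mean log2 signal stood for its gene. "Measured" means at or above the floor on at least 1 array. The SD between probe sets comes from the 2 brightest sets of 4372 genes, as the SD of their difference in log2 ratio divided by the square root of 2.

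Members and lists were chosen with earlier results of these data known. Named are all members, Tmprss6, the 3 or 4 largest ratios of each gene list and up to 3 of the largest of each marker list; other named genes were chosen after their values were seen. With 1 array per group there is no test, and precision is limited by the number of arrays. The steps were tested on simulated data, with Python 3.11.15, numpy 2.4.6 and pandas 2.3.3. The 9 alternatives were other scalings and normalizations, floors at the 30th and 70th percentile or as a pseudocount, the mean of probe sets, and plain probe sets only. Background correction and array batch could not be varied from MAS5 signals of 2 arrays.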

Additional observations from a re-analysis of the deposited data

How the results depend on the processing

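Of 266 values recomputed under the 9 alternatives, 246 moved little and 0 reversed a difference of 1.5-fold or more. Only the ratios of the members past 1.5-fold could count as reversed, since counts have no direction and every list median was smaller. Leaving out the scaling, moving the floor, averaging probe sets or keeping plain ones could not change those ratios. Moving little meant a count by 1.5 times or less and a ratio by less than the probe set SD. For a median it meant less than its error from that SD. Part of the 246 could not move, since a gene with 1 probe set keeps its ratio when probe sets are averaged. Members past 1.5-fold were 3 higher and 3 lower with the floor at the 30th percentile or as a pseudocount, where Fosb joined, and 2 higher and 2 lower with plain probe sets, where Gadd45g had none and the members' median was 0.022. In the other 6 alternatives they were 2 and 3. With the floor at the 30th percentile, 8 relatives were higher and 3 lower, 2 other rapid-response genes were higher, 1 dimer partner was lower, and Fosb gained a bound of 1.29 on the log2 scale. With the floor at the 70th percentile, 3 relatives were higher and 0 lower, and 4 other rapid-response genes were lower. With the floor as a pseudocount, the median was 0.090 for relatives and -0.0080 for other rapid-response genes, of which 1 was higher and 4 were lower; 0 upstream genes and 1 dimer partner were lower, 1 MYC target was higher, and Fosb had a log2 ratio of 0.87. With the mean of all probe sets, other rapid-response genes had 1 higher, 4 lower and a median of -0.023, upstream genes 0 higher and 0 lower, and MYC targets 1 higher. Over all genes, 2509 (15.9%) were higher and 2488 (15.8%) lower of 15762 measured at the lower floor. At the higher floor the counts were 442 (5.34%) and 519 (6.27%) of 8283. At the floor of 17.8 they were 1081 (8.82%) and 1126 (9.19%) of 12256. Gadd45g, Myc and Ier3 have no plain probe set. No paired analysis was possible because each group has 1 array. Fosb and Ier3 are limited by signals at or below the floor.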
